A study of Homo sapiens with 4 samples.

Results

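The nuclear receptor genes are 46 listed genes that encode ligand-regulated and orphan transcription factors, taken by symbol from the GENCODE annotation of GRCh37 (hg19), in which 64486 genes are annotated and 20176 are protein-coding. All 46 were found and all are protein-coding. Each was scored by whether a region with reduced H3K4me3 lay within 3 kb of its gene start or of the transcription start site (TSS) of any of its transcripts. The regions come from native ChIP-Seq, in which nucleosomes released by micrococcal nuclease are precipitated without crosslinking, of the triple negative breast cancer line MDA-MB-231. One library each was made from untreated cells, from cells given 1 μM Tat-SID, from cells given 2.5 μM Tat-SID and from input DNA without antibody. Tat-SID is a decoy peptide that joins the SIN3 interaction domain of MAD to a Tat sequence for nuclear entry and occupies the PAH2 domain of SIN3. The treatment lasted 3 days. The control cells were untreated and received no scrambled peptide. The authors listed regions whose H3K4me3 was reduced at 1 μM (141 regions) or 2.5 μM (2063 regions), both against the same untreated library. Each list gives positions only, so there is no level, fold change or replicate spread for any gene, the depth is not given in the sources used here, and the conditions could not be tested against each other. The identity of the cells could not be checked against markers, since the lists hold changed regions and not the whole H3K4me3 landscape. Whether fewer cells carried the mark or each cell carried less of it cannot be told apart.

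Nuclear receptors bind DNA through zinc fingers and, in most members, a ligand such as a steroid, retinoid, thyroid hormone, vitamin D or fatty acid through a separate domain. Steroid receptors (subfamily NR3) mostly bind as homodimers, many receptors of subfamily NR1 bind with a retinoid X receptor as partner, and orphan receptors such as the COUP-TFs (NR2F) and the NR4A group have no established physiological ligand or act without one. Without ligand many NR1 receptors recruit corepressor complexes with HDAC3, and with ligand they recruit coactivators. Triple negative breast cancers are defined in part by the absence of the estrogen and progesterone receptors, encoded by ESR1 and PGR, whereas the glucocorticoid receptor NR3C1 is widely expressed. H3K4me3 marks nucleosomes around the start sites of active genes, most of all at CpG-rich promoters.

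At 2.5 μM Tat-SID, 6 of the 46 receptor genes had a reduced region at a TSS, namely NR3C1, NR3C2, NR2F1, NR2F2, RARB and NR4A3. This is 13.0% of the members (exact Clopper-Pearson 95% confidence interval 4.94% to 26.3%, covering counting error over genes only), beside 10.8% of all protein-coding genes and 5.30% of all annotated genes under the same rule. At 1 μM, NR2F2 and NR3C1 had one, 2 of 46 members (4.35%, 0.531% to 14.8%), beside 0.674% of protein-coding genes and 0.360% of all annotated genes. At both doses the interval of the members holds the share of protein-coding genes, so the receptor genes as a group were not set apart from that background. In each of the 6 genes the region covered at least one TSS base and the TSS of the canonical transcript, so the distance was 0 for every gene inside the window. The other 40 members lay well outside it, with the nearest region 24.4 kb to 3490 kb from a TSS and a median of 303 kb. The plot of distances by receptor gene shows this gap, with no member between 0 and 24.4 kb at the higher dose. Both lists share the untreated library, so the presence of NR2F2 and NR3C1 on both is not independent evidence.

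**Figure D1:**
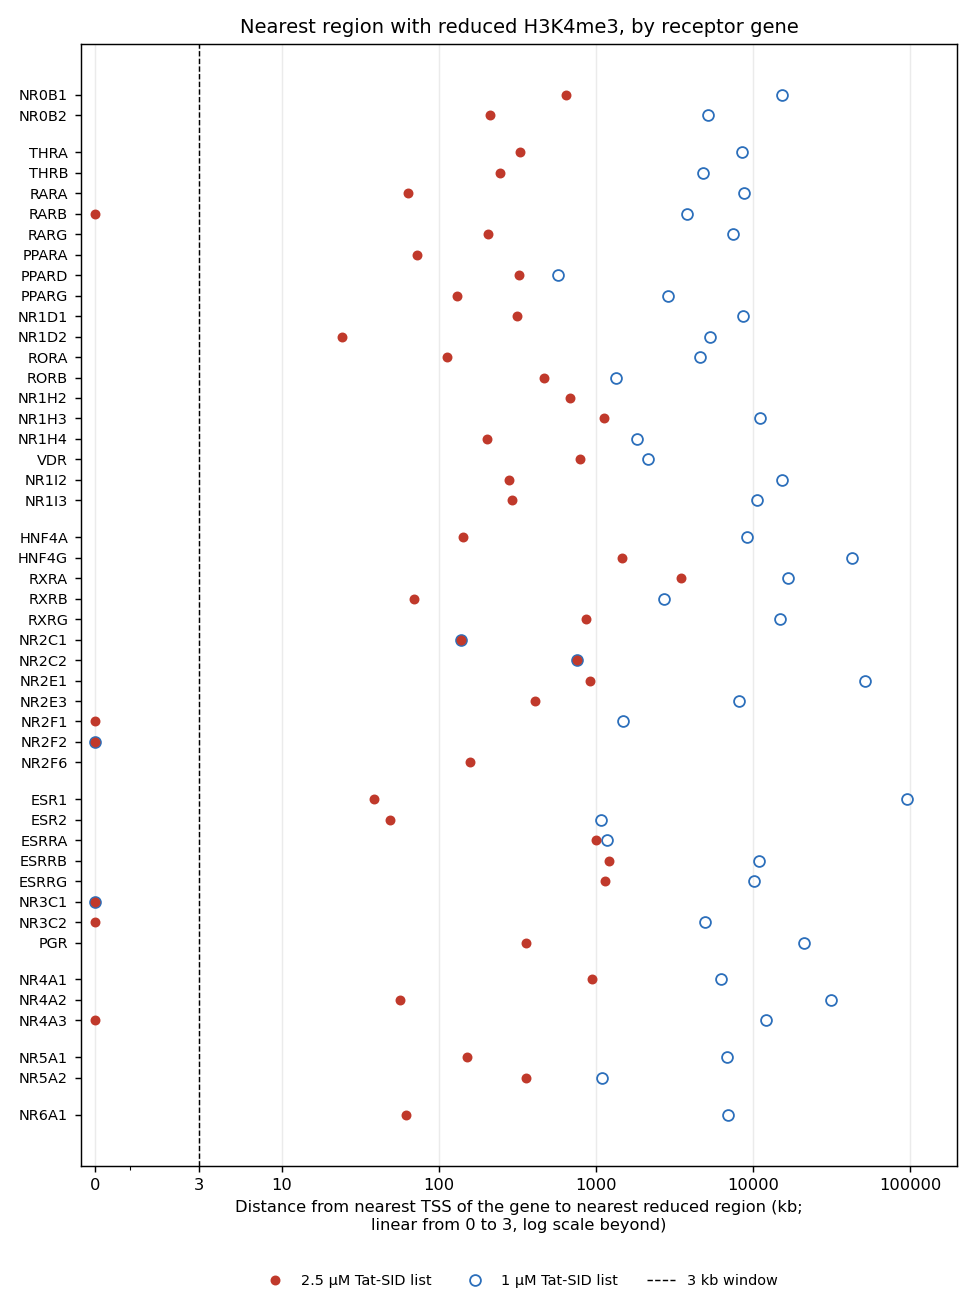
Distance in kb from the nearest TSS of each of the 46 receptor genes (rows, by subfamily) to the nearest reduced region of the 2.5 μM list (filled red) and the 1 μM list (open blue), on an axis that is linear from 0 to 3 kb and logarithmic beyond, with the 3 kb window as a dashed line. The 6 genes at 0 at 2.5 μM and the 2 at 0 at 1 μM are the only points inside the window, and a gene without a blue point has no 1 μM region on its chromosome.

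The promoter sequence of 4 of the 6 genes is given because these hold the features described below, the CpG content and the shared or repeated elements near the start site. Each runs from 150 bases before the canonical TSS to 50 bases from it, 5′ to 3′ on the strand of the gene in GRCh37, with every CpG dinucleotide in capitals. They lie at chr3:25469604-25469803 on the plus strand for RARB, chr5:92918778-92918977 on the plus strand for NR2F1, chr15:96873779-96873978 on the plus strand for NR2F2 and chr5:142783202-142783401 on the minus strand for NR3C1, and each lies wholly inside the reduced region of its gene.
RARB: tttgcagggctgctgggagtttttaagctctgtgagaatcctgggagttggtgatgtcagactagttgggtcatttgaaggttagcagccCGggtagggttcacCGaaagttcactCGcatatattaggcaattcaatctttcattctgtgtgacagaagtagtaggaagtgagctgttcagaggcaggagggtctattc
NR2F1: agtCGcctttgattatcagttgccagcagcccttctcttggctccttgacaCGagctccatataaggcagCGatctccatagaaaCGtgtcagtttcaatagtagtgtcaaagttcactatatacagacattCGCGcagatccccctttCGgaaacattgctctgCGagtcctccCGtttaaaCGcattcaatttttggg
NR2F2: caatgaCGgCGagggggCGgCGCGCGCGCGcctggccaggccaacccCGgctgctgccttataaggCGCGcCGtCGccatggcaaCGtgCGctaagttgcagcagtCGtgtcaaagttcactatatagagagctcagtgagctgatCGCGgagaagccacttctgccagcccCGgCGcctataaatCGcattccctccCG
NR3C1: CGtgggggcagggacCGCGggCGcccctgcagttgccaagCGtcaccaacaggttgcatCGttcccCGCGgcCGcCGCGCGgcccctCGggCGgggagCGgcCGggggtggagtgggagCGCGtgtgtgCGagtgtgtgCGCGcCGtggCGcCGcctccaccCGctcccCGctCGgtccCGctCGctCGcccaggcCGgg
The number of CpG dinucleotides in these 200 bases was 3 for RARB, 10 for NR2F1, 22 for NR2F2 and 31 for NR3C1. In the matching windows of the other two genes it was 11 for NR3C2 and 18 for NR4A3. RARB is thus the CpG-poorest and NR3C1 the CpG-richest of the 6, with a GC content of 47.0% and 79.0% over these bases.

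Among the steroid receptor subfamily NR3, 2 of 8 genes had a reduced region at a TSS at 2.5 μM (25.0%, 3.19% to 65.1%). The share over protein-coding genes was 10.8%, and the interval of each subfamily from NR0 to NR6 holds it, so none was set apart. NR3C1, which encodes the glucocorticoid receptor, lies on the minus strand of chromosome 5 from 142657496 to 142815077. Its reduced region ran from 142774001 to 142786249 at 1 μM and had the same start and end at 2.5 μM. The region is 12249 bp long and reaches 2998 bp upstream and 9250 bp downstream of the canonical TSS at 142783251, over exons 1 and 2, the whole of intron 1 and part of intron 2. Exon 2 is the long exon that holds the start codon of the receptor. With start sites no more than 500 bp apart joined into one promoter, NR3C1 has 8 promoters, of which 5 lay within 3 kb of the region, and 12 of its 17 transcripts start at these. The 3 remaining promoters were 4.43 kb, 28.0 kb and 28.8 kb away, and the farthest is the annotated start of the gene. The promoters at the NR3C1 region are thus those of the proximal cluster of alternative first exons, and the distal ones had no listed region within 3 kb.

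NR3C2, which encodes the mineralocorticoid receptor, the closest relative of NR3C1, had a region of 7749 bp at 2.5 μM on chromosome 4 from 149360901 to 149368649. It reaches 5083 bp upstream and 2665 bp downstream of the canonical TSS at 149363566 and covers exon 1, part of intron 1 and the gene start. Of its 6 promoters, 3 lay within 3 kb of the region, at which 6 of 9 transcripts start. At 1 μM the nearest region to NR3C2 was 4970 kb away. None of the other 6 genes of the subfamily had a region within 3 kb of a TSS at either dose. The nearest was 38.8 kb away for ESR1 (estrogen receptor alpha), 48.9 kb for ESR2 (estrogen receptor beta) and 361 kb for PGR (progesterone receptor), and 997 kb, 1210 kb and 1140 kb for the estrogen-related receptors ESRRA, ESRRB and ESRRG. ESR1 differed from PGR and ESR2 in that 2 reduced regions at 2.5 μM lay inside the annotated span of the gene. One, of 2999 bp from 152083801 to 152086799, lies 42 kb upstream of the canonical TSS and so outside the canonical transcript. Only the smaller one, of 1299 bp from 152346651 to 152347949, lies within that transcript, in intron 5. This smaller region is 81.3 kb from any annotated TSS of ESR1. Since the lists hold only regions past the authors' threshold, the absence of a region does not show that H3K4me3 was the same, and a gene without the mark in untreated cells could not enter a list of reductions.

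In subfamily NR2, the 2 COUP transcription factor genes NR2F1 and NR2F2 had reduced regions and the other 10 genes had none. At 2.5 μM this is 16.7% of the subfamily (2.09% to 48.4%), beside 10.8% of protein-coding genes. NR2F2 (COUP-TFII) lies on chromosome 15 from 96869167 to 96883492, and its region covered the whole gene at both doses, with a start at 96867751 and an end at 96884649 at 1 μM or 96884749 at 2.5 μM. At 16899 bp and 16999 bp, these were the 7th longest of 141 and the 5th longest of 2063 regions. The regions shared 16899 bp, with the same start and an end that differed by 100 bp. All 3 exons, both introns, 4 of 4 promoters and 5 of 5 transcript starts of NR2F2 lay inside. NR2F1 (COUP-TFI), on chromosome 5, had a region of 8399 bp at 2.5 μM from 92914551 to 92922949, which reaches 4377 bp upstream and 4021 bp downstream of the canonical TSS at 92918928 and holds 35.3% of the gene. Of its 5 promoters, 4 lay within 3 kb and the fifth was 4.73 kb away. No region of the 1 μM list lay closer than 1490 kb to NR2F1. Both regions also lay within 3 kb of a TSS of a non-coding gene on the opposite strand, NR2F1-AS1 and NR2F2-AS1. The lists carry no strand, so the signal of the partners cannot be told apart. The third gene of this branch, NR2F6, was 157 kb from the nearest region.

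The COUP-TF promoters also share sequence. Among the 15 pairs of the 6 promoters, the longest exact run in common was the 20 bases gtgtcaaagttcactatata of NR2F1 and NR2F2, which begin 46 bp before the canonical TSS at chr5:92918882-92918901 and 43 bp before it at chr15:96873886-96873905. The next longest run of any pair was 10 bases. In the promoters of 20098 protein-coding genes, read from 250 bases before the canonical TSS to 50 from it on both strands, this run was found in 2, NR2F1 and NR2F2 themselves. It was looked for after the sequences had been seen, and it is a description of the sequence, not of a site in use. The remaining members of NR2 were 69.2 kb (RXRB) to 3490 kb (RXRA) from a reduced region, and they include the hepatocyte nuclear factor genes HNF4A (143 kb) and HNF4G (1460 kb). None of the 3 retinoid X receptors, the common partners of the NR1 receptors, had a region at a TSS. With 3 genes, this absence does not set them apart from the 10.8% of protein-coding genes. For NR2C1 and NR2C2, which encode the testicular receptors TR2 and TR4, the nearest region was on both lists, 138 kb and 756 kb away.

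In subfamily NR1, 1 gene of 18 had a reduced region at a TSS at 2.5 μM (5.56%, 0.141% to 27.3%), beside 10.8% of protein-coding genes. This gene was RARB, which encodes retinoic acid receptor beta. The region on chromosome 3 from 25468051 to 25475499 is 7449 bp long and reaches 1703 bp upstream and 5745 bp downstream of the canonical TSS at 25469754, over exon 1 and part of intron 1. RARB has 9 promoters across a gene of 910046 bp, and the region lay at 1 of them, where 9 of 23 transcripts start, 739 kb downstream of the annotated gene start. This is the promoter of the RARβ2 isoform, a textbook target of retinoic acid receptors. A direct repeat of the type bound by RAR and RXR was searched on both strands as a pair of GTTCA letters with any 6 bases between them. It was found there at chr3:25469702-25469717, beginning 52 bp before the TSS, as GTTCAccgaaaGTTCA. The capitals mark the searched letters, which are not the full half-sites. The same letters occurred in 10 of 20098 promoter windows of protein-coding genes (0.0498%) and in the window of no other receptor gene. Each gene was read at its canonical TSS only, so other promoters, as those of RARA with 7 in all, were not searched. The letters are those of a known element type, so the match describes the sequence and is not a test. No 1 μM region lay within 3780 kb of a RARB start site. RARA and RARG, the other retinoic acid receptors, were 63.9 kb and 205 kb from the nearest 2.5 μM region.

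The 17 other NR1 genes were 24.4 kb to 1120 kb from a region. The closest was NR1D2, a circadian repressor of the REV-ERB group, at 24.4 kb from a region that lies at the starts of RPL15 and NKIRAS1. Its relative NR1D1 was at 315 kb. For the thyroid hormone receptors THRA and THRB the distances were 331 kb and 245 kb, and for the fatty acid receptors PPARA, PPARD and PPARG they were 72.6 kb, 325 kb and 131 kb. The oxysterol receptors NR1H2 and NR1H3 were 686 kb and 1120 kb away, the vitamin D receptor VDR 797 kb and the bile acid receptor NR1H4 204 kb. The xenobiotic receptors NR1I2 and NR1I3 were at 279 kb and 291 kb, and RORA and RORB at 113 kb and 470 kb.

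NR4A3, one of 3 immediate-early orphan receptors, had a region of 6399 bp at 2.5 μM on chromosome 9 from 102580951 to 102587349. It was nearly symmetric about the canonical TSS at 102584167, with 3216 bp upstream and 3182 bp downstream, and covered exon 1 and part of intron 1. Both promoters and 4 of 4 transcript starts of NR4A3 were within 3 kb of it. NR4A1 and NR4A2, which are induced by many of the same stimuli, were 948 kb and 56.8 kb from a reduced region. Thus 1 of the 3 NR4A genes was listed (33.3%, 0.84% to 90.6%), beside 10.8% of protein-coding genes. Neither gene of NR5, NR5A1 (150 kb) and NR5A2 (361 kb), nor NR6A1 (62.1 kb), nor the atypical receptors NR0B1 (644 kb) and NR0B2 (212 kb), which lack a classical DNA-binding domain, had a region at a TSS. A region of 3899 bp lay inside intron 2 of NR6A1 without reaching any of its start sites. No member was near an increased region. Regions where 2.5 μM Tat-SID increased H3K4me3 numbered 3, and the smallest distance to a member on the same chromosome was 16 Mb, for THRA.

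**Figure D2:**
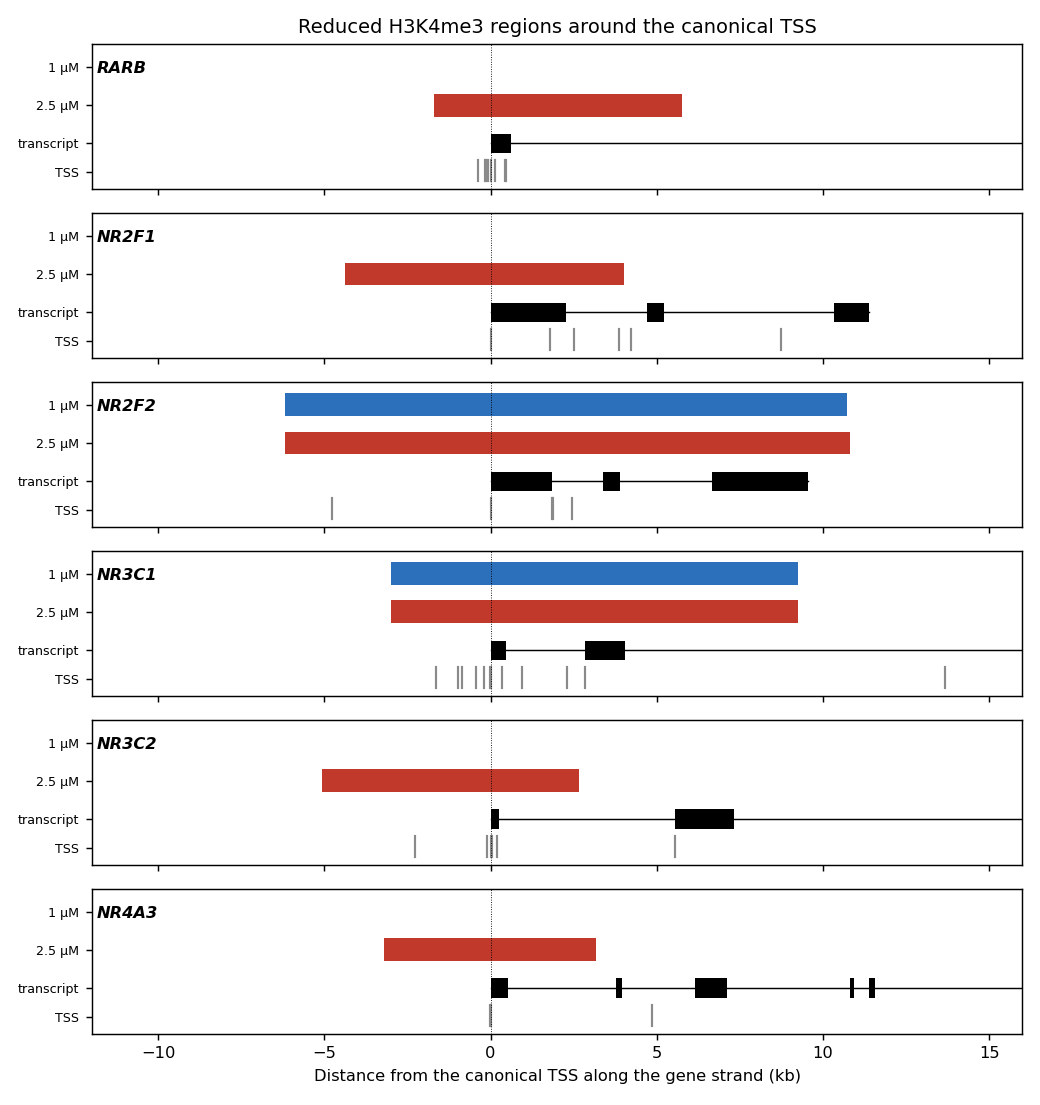
Reduced regions at 2.5 μM (red) and 1 μM (blue), the canonical transcript with exons as black boxes, and all annotated start sites (grey ticks) around the canonical TSS of the 6 listed receptor genes, with distance in kb along the gene strand. The NR2F2 bars span the whole transcript, the NR3C1 bars coincide at both doses, and the NR4A3 bar is centred on the TSS.

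The 6 regions were long. Their lengths were 6399 bp for NR4A3, 7449 bp for RARB, 7749 bp for NR3C2, 8399 bp for NR2F1, 12249 bp for NR3C1 and 16999 bp for NR2F2, with a median of 8074 bp. The median of all 2063 regions was 4949 bp (quartiles 3999 and 6199 bp), and all 6 exceeded the upper quartile. The 1720 regions that gave a protein-coding gene by the same rule had a median of 5099 bp and quartiles of 4199 and 6312 bp, and all 6 regions at receptor genes were longer than this upper quartile too. NR2F2 and NR3C1, the 2 genes already listed at 1 μM, had the longest regions, and the medians of the lists themselves were 8599 bp at 1 μM and 4949 bp at 2.5 μM. These are lengths of called regions, which depend on the depth of the libraries and on the threshold, and they are not a measure of how much H3K4me3 changed.

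**Figure D3:**
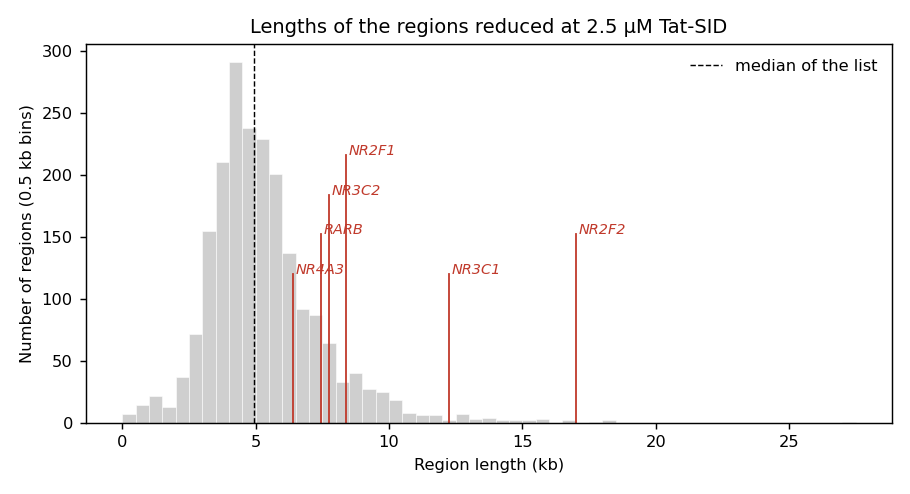
Number of the 2063 regions reduced at 2.5 μM by length in kb, in bins of 0.5 kb, with the median of the list as a dashed line and the regions of the 6 receptor genes in red. All 6 lie to the right of the median, from 6399 bp for NR4A3 to 16999 bp for NR2F2.

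The listed receptor genes stood alone among protein-coding genes at their regions. None of the 6 regions had the TSS of a second protein-coding gene within 3 kb, beside 23.4% of the 1720 regions (402). The TSS of a non-coding gene lay within 3 kb of 5 of the 6 regions, the exception being RARB, beside 44.4% of the 1720 (763). At NR2F2 these were 3, including the microRNA gene MIR1469. With 6 regions and no test, these counts describe the loci and set no receptor apart.

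Receptor genes carry more annotated start sites than the average gene, and the rule counts a gene at any of them. The median number of promoters was 4 in the members and 2 in all protein-coding genes, and 63.0% of members against 35.2% of protein-coding genes had over 3. Among genes with over 3 promoters, 5 of 29 members (17.2%) and 15.2% of protein-coding genes had a reduced region. Among those with up to 3, it was 1 of 17 members (5.88%, NR4A3) and 8.40%. Counted by promoter, 19 of the 214 promoters of the members lay within 3 kb of a reduced region (8.88%), and 5.20% of the promoters of all protein-coding genes did. All 19 belong to the 6 listed genes, which have 34 promoters in all. With the canonical TSS only, 13% of members and 9.88% of protein-coding genes had a reduced region at 2.5 μM. With the gene start only, it was 8.7% and 9.5%. Whether the number of start sites bears on the share of members was not tested.

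Promoter composition was read within 1 kb of the annotated gene start, and a promoter was classed as a CpG promoter where the GC content was over 50% and the observed over expected CpG ratio above 0.6. Of the 46 members, 22 had a CpG promoter by this measure, of which NR3C2 and NR4A3 had a reduced region, a share of 9.09% beside 14.8% of the protein-coding genes of this class. Of the 24 others, RARB, NR2F1, NR2F2 and NR3C1 had one, 16.7% beside 7.30%. The direction turned when the class was read at the canonical TSS, the alternative. There, 25 members had a CpG promoter and 4 of them a reduced region (NR2F2, NR3C1, NR3C2 and NR4A3), 16% beside 15.0%, and of the 21 others RARB and NR2F1 had one, 9.52% beside 6.54%. Among members without a region, THRA, RXRA, ESR1 and NR4A1 entered the class at the canonical TSS, and HNF4G, ESR2 and ESRRG left it. Of the 6 listed genes, NR3C1 changed class, with a GC content of 38.5% at the gene start and 70.7% at the canonical TSS. So did NR2F2, with 44.2% and 62.9%. In both, as in RARB, the gene start and the canonical TSS are different sites. NR2F1 missed the class at either site by its GC content of 47.3%, at a CpG ratio of 0.720. No difference between the classes can be read from 6 genes whose order depends on the start site used. CpG-rich promoters without a listed reduction included NR2C2 (CpG ratio 0.952) and NR1D2 (0.924), with the same values at both sites.

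**Figure D4:**
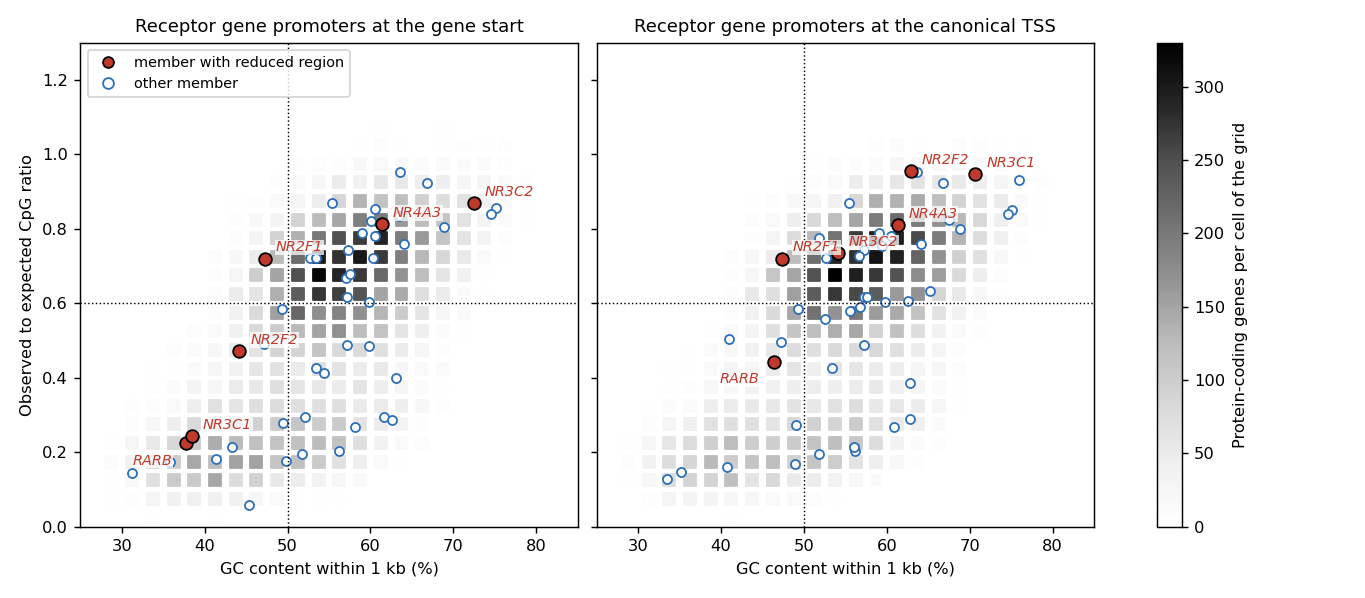
GC content in percent and observed over expected CpG ratio within 1 kb of the gene start (left) and of the canonical TSS (right) for the 46 receptor genes, filled red where a reduced region lay at a TSS at 2.5 μM, over the number of protein-coding genes in each cell of the grid (grey scale). The dotted lines mark the CpG class at 50% and 0.6, with 2 of the 6 red points in its upper right part on the left and 4 on the right.

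Further motifs were searched in the windows of 300 bases on both strands. The motifs were the E-box CACGTG, to which the MYC, MAX and MAD proteins bind, the receptor half-site AGGTCA and the cyclic AMP response element TGACGTCA. None of the 6 listed genes held any of them in this window at the canonical TSS. In the protein-coding genes with a reduced region, 9.32%, 8.13% and 4.68% of the windows held them, respectively, and in all protein-coding genes 8.74%, 11.3% and 2.69%. Among all members, the windows of 4, 6 and 3 genes held them. With 6 genes, an absence beside such shares sets no receptor apart. Over the whole reduced regions, which are longer than the windows, AGGTCA occurred at all 6 genes, from 1 match at NR2F1 to 7 at NR3C1. CACGTG occurred at NR2F2 and NR4A3, with 3 matches each, and TGACGTCA at none. Other reduced regions were not searched, so these counts have no background, and a longer region offers more positions for a match.

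Receptors act through coregulators, and 6 of 30 coregulator genes had a reduced region at a TSS at 2.5 μM (20.0%, 7.71% to 38.6%), beside the 10.8% of protein-coding genes. On the corepressor side these were NCOR1, the scaffold that unliganded receptors recruit, with a region of 5799 bp, TBL1XR1, a subunit of the NCOR complex, with 5049 bp, NRIP1, a ligand-dependent corepressor, with 7249 bp, and SIN3A, whose PAH2 domain Tat-SID occupies, with 7849 bp. The coactivators were PPARGC1A, a regulator of mitochondrial genes, with 3649 bp, and NCOA7 with 3449 bp. In NCOA7 the region lay at the gene start, 8.01 kb from the canonical TSS, and in PPARGC1A and TBL1XR1 at the canonical TSS, 12.4 kb and 28.7 kb from the gene start. The NCOR1 region also had a TSS of another protein-coding gene, PIGL, within 3 kb, so it cannot be assigned to NCOR1 alone. HDAC3, MED1, CREBBP and EP300 were among the 24 coregulator genes without a reduced region at a TSS. At 1 μM no coregulator gene was listed (0 of 30, which allows a share of up to 10%, taken as 3 counts of the total), beside 0.674% of protein-coding genes.

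Of 38 genes that respond to receptor ligands, 7 had a reduced region at a TSS at 2.5 μM (18.4%, 7.74% to 34.3%) and none at 1 μM (0 of 38, by the same limit up to 7.89%, beside 0.674%). Among the 7 glucocorticoid response genes these were FKBP5, a chaperone that restrains the glucocorticoid receptor, with a region of 3249 bp, DUSP1, a MAP kinase phosphatase, with 8449 bp over the whole gene, and KLF9, with 6049 bp. Among the 6 estrogen response genes they were XBP1 (4149 bp) and IGFBP4 (7149 bp), of the 5 oxysterol response genes MYLIP (5349 bp), which encodes a ligase that degrades the LDL receptor, and of the 3 circadian genes CLOCK (5049 bp). None of the 5 retinoic acid, 6 fatty acid, 2 vitamin D, 2 bile acid and 2 xenobiotic response genes had one. The interval of every group at 2.5 μM holds the 10.8% of protein-coding genes. It was 9.9% to 81.6% for the 7 glucocorticoid response genes and 0% to 52.2% for the 5 retinoic acid response genes. A further list held 24 genes that make, carry or break down receptor ligands, except for THRSP, which responds to thyroid hormone. None of them had a reduced region at a TSS at either dose (0 of 24, by the same limit up to 12.5%). The closest was CRABP2, a retinoic acid carrier, at 19.0 kb. The intervals of the coregulators and of the response genes hold the background of 10.8%, and the limit for the ligand genes lies above it.

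**Figure D5:**
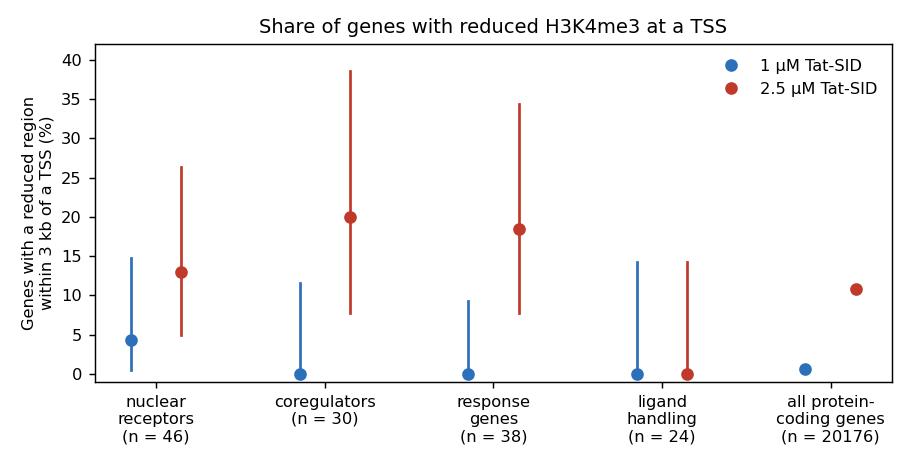
Percent of genes whose TSS lay at most 3 kb from a reduced region, for 1 μM (blue) and 2.5 μM (red), in the receptor genes and the 3 related lists, beside all protein-coding genes, with bars for the exact 95% confidence interval. At 2.5 μM the interval of every list holds the 10.8% of protein-coding genes.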

How the data were processed

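Native H3K4me3 ChIP-Seq libraries of MDA-MB-231 cells were made by the authors, 1 per condition. Reads were checked by them with FastQC (version 0.10.0), aligned to hg19 with Bowtie (version 1.0.0) and turned into lists of changed regions by SICER-df against the untreated library, in windows of 50 bp with gaps of 400 bp. The deposited lists hold 3 columns, the chromosome and both ends of a region, and no signal. The FDR threshold differs between the authors' methods and results, and the lists are labelled with the stricter one, that of the results. How duplicate reads were handled is not given in the sources used here. Depth is not given in the sources used here, and intervals cover counting error only.

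Start positions were read from 0 and are printed from 1. Genes came from GENCODE release 44 on GRCh37, and every region fell within the length of its chromosome. The canonical TSS is that of the MANE Select or Ensembl canonical transcript. No test was run. The nearest-region search was tested on simulated regions. The members and lists were chosen with earlier results of these data known. Named were all members with a region within 3 kb of a TSS, those with one within 50 kb, ESR1, PGR and every listed gene of the related lists. Other genes were named after their values were seen. The alternatives changed the window, the start sites used, the region length and merging. Software was Python 3.11.15, numpy 2.4.6, scipy 1.17.1, pysam 0.24.0 and matplotlib 3.10.9.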

Additional observations from a re-analysis of the deposited data

How the results depend on the processing

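The 6 receptor genes listed at 2.5 μM remained the same with the TSS of protein-coding or canonical transcripts only and with regions within 3000 bp merged. They also remained with windows of 0, 1 and 10 kb and with regions of at least 1000 bp, but these settings could not change the list. Each of the 6 regions covers a TSS and is at least 6399 bp long, and the next member lay 24.4 kb from a region. With the gene start only, RARB and NR3C1 were lost, which left 4 genes at 2.5 μM and 1 (NR2F2) at 1 μM, because their regions lie at internal promoters. The share of protein-coding genes, 10.8% at 2.5 μM, was 11.6% with 10 kb, 9.5% with the gene start only and 9.88% with the canonical TSS only, and at 1 μM it was 0.496% in place of 0.674% with the gene start only. CpG promoter members with a region numbered 2 at the gene start and 4 at the canonical TSS. Coregulator genes with a region numbered 6, and 7 with 10 kb (MED1 added), 5 with the canonical TSS only (without NCOA7) and 4 with the gene start only (without PPARGC1A and TBL1XR1). Response genes numbered 7, and 6 with the gene start only (without FKBP5). A stricter FDR threshold was not run, since no region carries a score. No paired analysis was possible because there were no replicates, with a single library for each dose, and nothing was tested.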

Other observations

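For several receptor genes without a reduced region at a TSS, the nearest region lay within 3 kb of a TSS of other genes. These other genes were named after their values were seen. The region nearest to PPARA on chromosome 22, 72.6 kb from its TSS, is 13249 bp long and lies at MIRLET7BHG, the host gene of let-7 microRNAs. The region inside NR6A1 lies at MIR181A2HG, a host gene of miR-181 microRNAs, and is also the nearest one to NR5A1 at 150 kb. RARA, THRA and NR1D1, which lie near each other on chromosome 17, share as their nearest region the one at TOP2A, the gene of a DNA topoisomerase, 63.9 kb, 331 kb and 315 kb away. The region nearest to RXRB, 69.2 kb away, lies at the starts of RPS18, VPS52 and B3GALT4, and the one nearest to ESR2, 48.9 kb away, at MTHFD1, a gene of folate metabolism. The region of 3299 bp nearest to NR4A2, 56.8 kb away, has no annotated TSS within 3 kb. The same holds for that of 2999 bp inside the annotated span of ESR1, upstream of its canonical TSS.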
